A study of Drosophila melanogaster with 3 samples.

Results

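Chromatin immunoprecipitation with sequencing (ChIP-seq) mapped the CG6163-eGFP fusion protein in whole *Drosophila melanogaster* prepupae, and the regions described here are the peaks that lay just upstream of promoters facing in 1 direction. Their summits lay on chromosome arms 2L, 2R, 3L and 3R and chromosomes 4 and X, within 500 bp of a protein-coding transcript start. All protein-coding starts in that window were on the same strand, and the summit was upstream of the nearest of them. In the authors' conservative peak list 1795 of 10894 peaks met this rule, which was 16.5% of the 10892 peaks on these chromosomes. A further 1010 summits lay downstream of the nearest one-strand start, 8 lay at the start itself, 716 lay near starts on both strands, and 7363 lay more than 500 bp from any protein-coding start.

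The study held 1 group of 3 biological replicates, so that no condition was compared. All animals carried an insertion targeting *CG6163* that expresses the protein fused to eGFP (strain CG6163-GFP), and the antibody recognised GFP. The labels give the stage as prepupa, the animal in the short interval between larva and pupa, with the exact age unknown and the sex not collected. What drives the fusion, and how many animals were pooled, are nowhere stated in the sources used here, and an untagged or input control was not used here. Signal below is the authors' value per peak, in arbitrary units that hold within 1 list. The same rule applied to the lists of the separate replicates found 1358, 1446 and 1117 upstream promoter peaks, which is 1307 ± 170 (SD, n = 3). Of the peaks in those lists, these were 18.2%, 18.3% and 19.1%. No read counts were used, so the depth of the libraries is unknown; their lists held 7449, 7919 and 5843 peaks on these chromosomes.

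As background, a promoter is the stretch of DNA around the position where RNA polymerase II begins a transcript. Regulatory proteins often bind in the nucleosome-poor DNA just upstream of that position, at short sequence words such as the TATA box, the DRE, to which Dref and BEAF-32 bind, or the GA repeats bound by Trl, the GAGA factor, and by Clamp. Where neighbouring genes point away from each other, the same DNA is upstream of both, so a peak there cannot be assigned to 1 of the genes. At the one-strand promoters described here no protein-coding start within the window faces the other way, although at 31 of the peaks the nearest start is annotated to several genes on that strand, each of which is counted below.

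The sequences at the summits of strong upstream promoter peaks are shown first, because the base composition at the summit set strong and weak peaks apart. All are from the RefSeq sequence of the dm6 assembly, 5′ to 3′ along the strand of the gene, at most 50 bases to each side of the summit and free of annotated exons, and capitals mark runs of at least 6 consecutive A or T. They come from the 8 highest-ranked of the 20 strongest peaks that could be shown. In the order printed they are at *Ugalt* (chrX:2703853-2703941, minus strand), *CG14100* (chr3L:19590566-19590666, minus strand), *CG18549* (chr3R:12449130-12449230, plus strand), *ph-p* (chrX:2137295-2137395, minus strand), *Hsp27* (chr3L:9383861-9383961, plus strand), *CG13921* (chr3L:1746723-1746823, plus strand), *Gapdh2* (chrX:15867934-15868034, plus strand) and *REPTOR* (chr3R:24572612-24572712, minus strand).
Ugalt: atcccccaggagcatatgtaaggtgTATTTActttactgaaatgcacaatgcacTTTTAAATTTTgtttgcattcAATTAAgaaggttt
CG14100: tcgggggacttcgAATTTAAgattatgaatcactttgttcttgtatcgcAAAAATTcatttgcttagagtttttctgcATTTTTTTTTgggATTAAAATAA
CG18549: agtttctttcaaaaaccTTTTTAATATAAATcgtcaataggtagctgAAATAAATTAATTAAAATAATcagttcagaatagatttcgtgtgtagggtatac
ph-p: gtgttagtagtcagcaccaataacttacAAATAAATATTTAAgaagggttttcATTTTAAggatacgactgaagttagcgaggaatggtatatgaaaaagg
Hsp27: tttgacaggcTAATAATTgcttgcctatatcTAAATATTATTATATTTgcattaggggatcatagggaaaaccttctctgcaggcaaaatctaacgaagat
CG13921: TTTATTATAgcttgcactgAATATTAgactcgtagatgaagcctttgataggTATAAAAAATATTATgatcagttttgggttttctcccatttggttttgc
Gapdh2: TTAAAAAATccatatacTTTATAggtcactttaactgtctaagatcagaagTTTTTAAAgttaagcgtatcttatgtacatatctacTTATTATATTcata
REPTOR: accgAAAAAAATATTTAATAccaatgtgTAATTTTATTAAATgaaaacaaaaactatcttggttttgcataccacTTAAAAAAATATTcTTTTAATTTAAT

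Bases inside such runs numbered 23 of 89 at *Ugalt*, 34 of 101 at *CG14100*, 35 at *CG18549* and 21 at *ph-p*. They numbered 25 at *Hsp27*, 31 at *CG13921*, 33 at *Gapdh2* and 55 at *REPTOR*, each of 101 bases. A/T made up between 66.3% and 81.2% of the 101 bp at these 8 summits.

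Examples of the words that were more frequent at the summits of all upstream promoter peaks follow. In *bbx* (chrX:21367760-21367860, plus strand) and *CG5910* (chr3L:20444957-20445057, plus strand) capitals mark the GAGA word GAGAG, in *bbx* as its reverse complement, and in *sea* (chr3R:11562424-11562524, minus strand) and *eEF1gamma* (chr3R:29220094-29220171, plus strand) they mark the DRE word ATCGATA, in *sea* as its reverse complement and in *eEF1gamma* on both strands, where the matches overlap. These were picked, after the first examples had been seen, as the strongest peaks with the word within 25 bp of the summit.
bbx: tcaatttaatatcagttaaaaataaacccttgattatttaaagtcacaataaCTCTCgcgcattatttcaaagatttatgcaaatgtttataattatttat
CG5910: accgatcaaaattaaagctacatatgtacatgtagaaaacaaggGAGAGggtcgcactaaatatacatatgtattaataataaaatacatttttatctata
sea: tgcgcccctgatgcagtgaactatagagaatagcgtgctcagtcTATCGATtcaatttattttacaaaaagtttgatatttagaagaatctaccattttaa
eEF1gamma: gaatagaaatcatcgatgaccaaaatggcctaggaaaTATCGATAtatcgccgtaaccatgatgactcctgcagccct

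Upstream sequence of one-strand promoters held more summits than downstream sequence of the same kind of promoter. Eligible upstream sequence, that is, every base that would meet the rule, came to 6.17 Mb and held 291 summits per Mb. Eligible downstream sequence came to 7.47 Mb and held 135 summits per Mb, so that the upstream density was 2.15 times the downstream density. In the replicates' own lists the ratio was 2.57, 2.54 and 3.32, above 1 in 3 of 3 libraries. The mean log2 ratio was 1.48 ± 0.22 (SD, n = 3; exact sign-flip permutation test, two-sided, p = 0.25, the smallest that 3 libraries allow).

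Taken over the whole window, promoters with starts on both strands were denser still. Their 1.67 Mb held 428 summits per Mb, and the log2 ratio of upstream one-strand to both-strand density was −0.70 ± 0.23 in the replicates' own lists (exact p = 0.25, again the smallest possible, lower in 3 of 3 libraries). The median signal followed the same order, with 158 for upstream peaks, 123 for downstream peaks and 178 for both-strand peaks. Within the replicates' lists the median upstream signal was 1.20, 1.24 and 1.24 times the downstream median, and 0.929, 0.940 and 0.945 times the both-strand median (exact p = 0.25 for each). The densities were not matched for distance from the start. In the conservative list, bins of 50 bp over the first 200 bp upstream held 421 to 450 summits per Mb, near the 428 of both-strand promoters. Means of the replicates' own lists were 303 to 338 in these bins and 342 for both-strand promoters.

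In the conservative list summits were spread evenly over the first 200 bp upstream of the start and thinned out beyond. The median distance was 148 bp with quartiles of 72 and 246.5 bp, and the replicates' own lists gave medians of 149, 150 and 153 bp. Per Mb of eligible sequence, 441 summits lay 1 to 50 bp from the start, 437 at 51 to 100 bp, 450 at 101 to 150 bp and 421 at 151 to 200 bp. In the replicates' own lists these 4 bins held 320 to 346 per Mb in replicate 1 and 322 to 372 in replicate 2, while replicate 3 had 225 in the first bin, 267 in the next and 308 at 101 to 150 bp. In the conservative list the density then fell to 288 at 201 to 250 bp and 227 at 251 to 300 bp, and lay between 111 and 163 in the 4 bins from 301 to 500 bp. Downstream of the start the density in the first 50 bp was 468 per Mb, the highest of all bins, whereas in each replicate's own list (282.5, 289 and 187) it lay below the 4 bins nearest to the start upstream. It was already 230 at 51 to 100 bp, 141 at 101 to 150 bp and 89.5 at 151 to 200 bp.

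**Figure D1:**
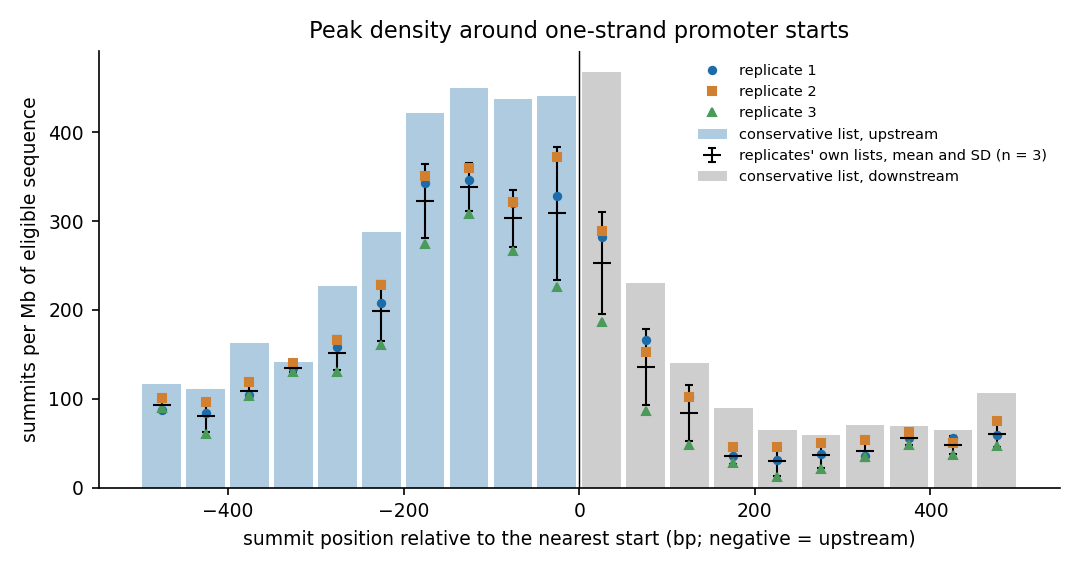
Summits per Mb of eligible sequence in bins of 50 bp around one-strand starts (horizontal axis, bp, negative upstream), as bars for the conservative list and as points for each replicate's own list, with the mean and SD of the 3 replicates in black. The bars stay between 421 and 450 per Mb from 1 to 200 bp upstream and fall to 89.5 by 151 to 200 bp downstream, and the bar for the first 50 bp downstream is the highest (468), where the mean of the replicates (253) is below their means in the 4 nearest upstream bins (303 to 338).

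The peaks nearest to the start were not the strongest or the most repeatable. The median signal was 129 at 1 to 50 bp and 139 at 51 to 100 bp, and lay between 179 and 189 from 101 to 250 bp. The share found in all 3 replicates also rose, from 32.5% at 1 to 50 bp and 40.7% at 51 to 100 bp to between 52.7% and 53.7% from 101 to 250 bp. Farther out it was highest, 57.8% and 58.1%, in the 2 bins from 301 to 400 bp, where the median signal was 174 and 165. It was 40.3% and 42.2% in the 2 outermost bins, where the median signal was 162 in both. Across the 1795 peaks, which share 1 list, the Spearman coefficient of signal with distance was 0.14, a weak relation. At the inner limit of the rule, 70 peaks lay 1 to 10 bp upstream with a median signal of 130, and 74 peaks just outside it lay 1 to 10 bp downstream with a median of 136. At the outer limit, 22 peaks lay 480 to 500 bp upstream with a median of 148, and 23 lay 501 to 520 bp upstream with a median of 188.

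Upstream promoter peaks were found in all 3 replicates more often than downstream peaks and less often than both-strand peaks. Peaks of the conservative list overlapped, by at least 1 bp, a peak in the own list of replicate 1 in 71.1% of cases, of replicate 2 in 72.7% and of replicate 3 in 56.4%. All 3 lists held 837 of them (46.6%, exact binomial 95% interval 44.3 to 48.97), 382 were in 2 lists, 320 in 1 list and 256 (14.3%) in none. The share in all 3 was 28.3% (25.6 to 31.2) for downstream peaks, 52.9% (49.2 to 56.6) for both-strand peaks and 39.1% (38.0 to 40.3) for peaks farther from any start. The interval of the upstream peaks overlapped none of these, but peaks of 1 list are not independent replicates. All intervals cover counting error only.

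**Figure D2:**
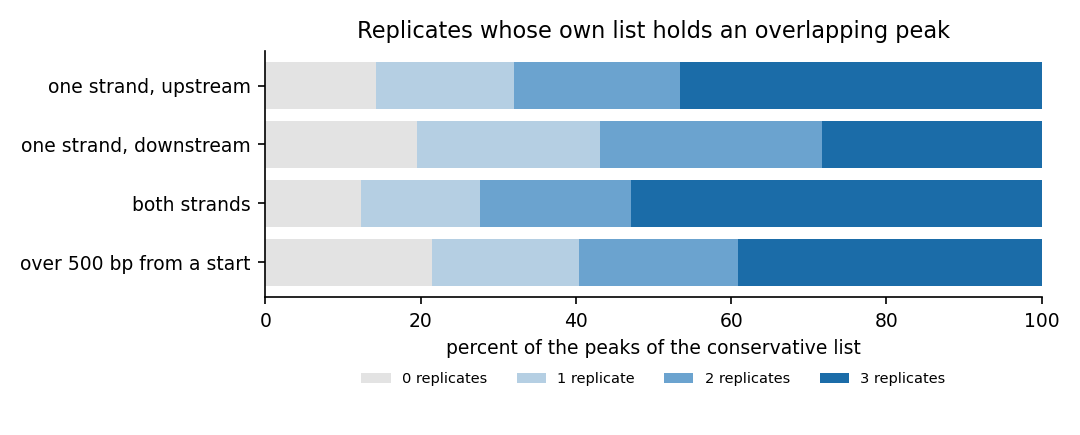
Percent of conservative peaks (horizontal axis) in each of 4 position classes (rows) whose interval overlaps a peak in the own list of 0, 1, 2 or 3 replicates (shades). The darkest part, peaks in 3 replicates, takes 46.6% of the upstream one-strand peaks against 28.3% of the downstream ones.

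Peaks found in more replicates were stronger, narrower and slightly farther from the start. The median signal rose from 85.6 for peaks in no replicate's list to 107, 145 and 281 for those in 1, 2 and 3 lists. Their median distances were 129, 128, 138 and 161 bp. A width of exactly 370 bp was listed for 1301 of the 1795 peaks (72.5%), for 99.2% of those in no list and for 44.8% of those in all 3, whose median width was 298 bp. Where a replicate had the peak, its own summit lay a median of 16, 16 and 15 bp from the summit of the conservative list in replicates 1, 2 and 3. Among the 837 peaks in all 3 lists, the 3 summits spanned at most 50 bp in 73.7% of cases. Across these 837 peaks the Spearman coefficients of signal were 0.91 between replicates 1 and 2, and 0.82 between replicate 3 and either of them.

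Signal in the conservative list ranged from 2.42 to 4494 with quartiles of 105 and 273, and was at least 1000 for 72 peaks and below 10 for 23. Of all 1795 peaks 385 (21.4%) overlapped a stronger peak of the same list, and these had a median signal of 136 against 167 for the others, of which 48.7% were found in all 3 replicates. Of the 23 weakest, 22 overlapped a stronger peak. The example of *bowl*, a zinc finger gene of the odd-skipped family, was chosen after its values were seen. A peak upstream of it had a signal of 3.88, overlapped one of 294, and counted as found in all 3 replicates through peaks of 96.5, 108 and 90.0. Overlap with a replicate's peak therefore did not always mean that the same summit was found. A q-value above 0.05 was listed for 487 of the peaks (27.1%).

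The strongest upstream promoter peak belonged to *Ugalt*, which encodes a nucleotide-sugar transporter of the Golgi. Its signal was 4494 in the conservative list and 1534, 1631 and 1341 in replicates 1, 2 and 3, the highest of all upstream promoter peaks in each of them. The summit lay 39 bp upstream of the start, outside any annotated gene, in a peak at chrX:2703723-2704055 that also covers the start. *CG14100* was next in the conservative list and in each replicate, with 3766 and with 1191, 1383 and 1244 in replicates 1, 2 and 3. Its peak, at chr3L:19590459-19590764, had its summit 92 bp upstream of the start. *CG18549* had 2796, with 1019, 1050 and 750 in replicates 1, 2 and 3, each on the scale of its own list.

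Of the other genes with 1 of the 20 strongest peaks found in all 3 replicates, *mRpL41*, of the large subunit of the mitochondrial ribosome, had a signal of 2561. *eIF6*, which keeps free large ribosomal subunits from joining small ones, had 2253. *Hsp27*, a small heat shock protein that acts as a chaperone, had 2450 in the conservative list and 750, 936 and 778 in replicates 1, 2 and 3, with its summit 152 bp upstream of the start. *ph-p*, whose product Polyhomeotic belongs to a Polycomb repressive complex, had 2531 with 794, 886 and 759 in the replicates. Its summit lay 490 bp upstream of the start, near the outer limit of the rule and inside an intron. The neighbouring copy of that gene, *ph-d*, had its own peak 308 bp upstream of a start with a signal of 519. How reads that fit both copies were placed is not given in the sources used here, so these values are uncertain.

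Further down these 20, *Fkbp14*, a prolyl isomerase of the endoplasmic reticulum, had a signal of 2224, and *Rtnl1*, a reticulon that shapes that membrane, had 1781. *Trp1*, a subunit of its protein translocation machinery, had 1811. *Gapdh2*, a glycolytic enzyme, had 1992, *Lpin*, a phosphatidate phosphatase of fat synthesis, had 1909, and *SLC5A11*, a sodium-coupled solute transporter, had 2011. *REPTOR*, a bZIP transcription factor downstream of TORC1, had 1812. *gish*, a casein kinase, had 1766, *Btk*, a Tec family tyrosine kinase, had 1697, and *papi*, a Tudor-domain protein of the piRNA pathway, had 1798. The remaining genes were *CG13921* (2327), *CG1888* (2196) and *CG13501* (1711).

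**Figure D3:**
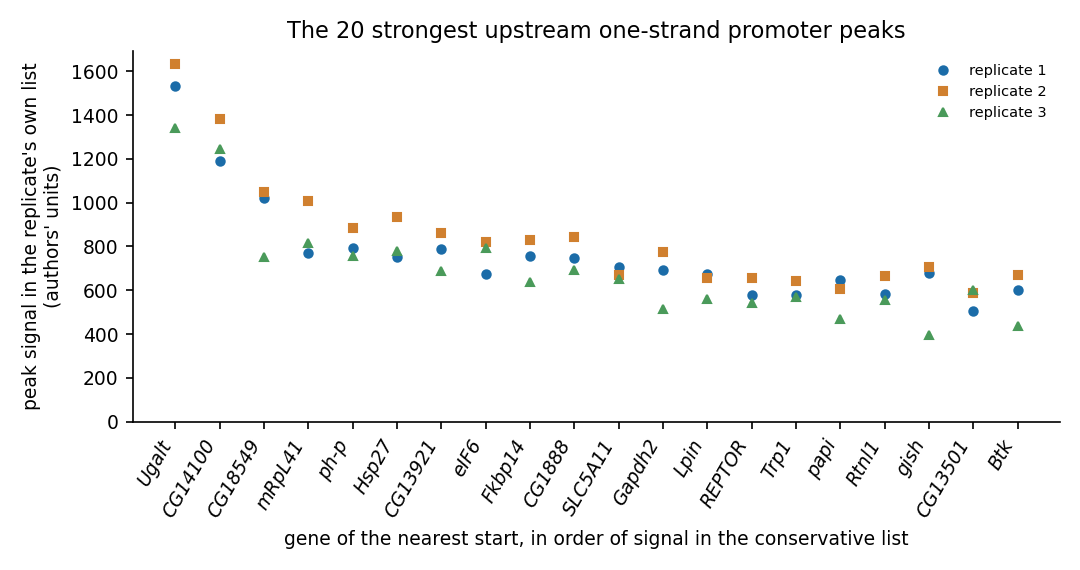
Signal of the 20 strongest upstream promoter peaks found in all 3 replicates, by gene of the nearest start (horizontal axis) and replicate (points; vertical axis, the authors' units of each replicate's own list, which share no scale between lists). *Ugalt* and *CG14100* stand highest in each replicate, and *gish*, at 395 in replicate 3, ranks 33 of 1013 there.

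These 20 peaks were picked by signal in a list drawn from the same 3 libraries. They also had to be in all 3 replicates, so the choice itself favoured high ranks in each. Ranks were taken by replicate signal among the peaks of the conservative list that the replicate's own list overlapped. By these ranks 17 of the 20 were among the 20 strongest in replicate 1, 17 in replicate 2 and 18 in replicate 3. The lowest rank was 32 of 1277 in replicate 1 and 25 of 1305 in replicate 2, both for *CG13501*, and 33 of 1013 in replicate 3, for *gish*. Summits lay 39 to 490 bp upstream of the start with a median of 157 bp. They were outside any annotated gene for 7 peaks, in an intron for 10 and in an exon for 3. Mean A/T content at the 20 summits was 71.5%, and 8 held the TATA box word TATAAA, 0 the GAGA word and 0 the DRE word. Over all 1795 upstream promoter peaks these words were in 14.6%, 24.6% and 3.12%. At a share that low, 20 peaks are too few for the 0 of the DRE word to mean anything.

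The strongest peaks that overlapped no replicate's thresholded peak had much lower signals. They were at *sea*, the mitochondrial citrate carrier (299), *Glut4EF* (172), *CG2924* (144), *l(3)neo38* (134) and *Gp150* (134). Peaks that passed no threshold were nonetheless listed at *Glut4EF*, with 71.2, 49.3 and 36.2 in the ranked lists of replicates 1, 2 and 3, and at *Gp150*, with 44.1, 47.5 and 45.1. For *sea* another peak, 178 bp upstream of the same start, had a signal of 1020 and was in all 3 replicates, and at the summit at 377 bp a ranked peak was listed in replicate 1 alone (64.0). A ranked peak, thresholded or not, overlapped 1777, 1785 and 1711 of the 1795 members in replicates 1, 2 and 3.

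Coding sequence upstream of starts was nearly free of summits, and introns held more than their share of the sequence. Summits lay outside any annotated gene for 861 peaks (48.0%), where 49.3% of the eligible bases lay. Introns held 736 (41.0%, 95% interval 38.7 to 43.3) against 30.7% of the bases. Non-coding exons, UTRs included, held 189 (10.5%) against 13.6%. Coding exons held 9 (0.501%, 0.230 to 0.950) against 6.40%, and 0.591% ± 0.278 in the lists of the replicates (SD, n = 3). None of these 9 peaks was found in all 3 replicates.

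Peaks at alternative starts inside a gene resembled those at the gene's outermost start. The nearest start was the most upstream start of its gene for 1047 peaks (58.3%) and an internal one for 748. Median signals were 161 and 154, and 47.3% and 45.7% of them were found in all 3 replicates. Only 1 start position lay within 500 bp for 1536 peaks (85.6%).

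The X chromosome had the highest density of upstream promoter peaks and chromosome 4 the lowest. The X held 335 per Mb of eligible sequence against 261 on 2L, 289 on 2R, 291 on 3L and 292 on 3R. In the replicates' own lists the X held 258, 256 and 231 per Mb, and was the densest of these 5 in each replicate. The mean over replicates was 248 ± 15.3 on the X and lay between 196 and 216 per Mb on the large autosome arms (SD, n = 3). Chromosome 4, most of which is heterochromatic, held 1 peak in 0.0514 Mb.

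Upstream promoter peaks lay at 1521 of 13945 protein-coding genes (10.9%), and at 14.1% of the 10807 genes with any eligible upstream base. The replicates' own lists gave 8.69%, 9.06% and 7.28%, and 768 genes (5.51%) had a peak found in all 3 replicates. Most genes, 1275, had 1 such peak, and 246 had several. *Svil*, the supervillin gene of actin organisation, had 6, spread over 106 kb at different starts, with signals of 94.2 to 600, of which 3 were in all 3 replicates. *dnc*, a cAMP phosphodiesterase needed for learning, had 5 over 153 kb with signals of 109 to 1166, 4 of them in all 3 replicates, although 2 of its peaks overlapped each other and drew on the same replicate peaks. *lola* and *mamo*, both BTB zinc finger transcription factors, and *CG34417* also had 5 each.

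Genes of the response to the steroid hormone ecdysone, which drives metamorphosis, had upstream promoter peaks most often among the 22 gene lists. Of 32 genes 17 had one (53.1%, 95% interval 34.7 to 70.9), against 10.9% of all protein-coding genes. Among the 31 with eligible upstream sequence the share was 54.8% (36.0 to 72.7), against 14.1% of all such genes. The signalling genes described next came close on that basis, with 52.9% (35.1 to 70.2) of 34. Shares were not adjusted for the number of starts of a gene. The replicates' own lists gave 13, 14 and 9 genes, 37.5% ± 8.27 (SD, n = 3). A peak found in all 3 replicates lay at 7 of the 17, and at 768 of the 1521 genes with any upstream promoter peak. Here and for the lists below, the median signal takes only the strongest peak of each gene. The median of these 17 genes was 185, against 158 over all upstream promoter peaks, where weaker peaks of the same gene also count. *E23*, an ABC transporter gene induced by ecdysone, was the strongest with 1001, and with 334, 333 and 278 in replicates 1, 2 and 3. *Eip93F*, a transcription factor of the larval-to-adult transition, had 664, with 267, 300 and 93.6 in the replicates. *Hr3*, a nuclear receptor of the prepupal cascade, had 422 at a start shared with *CG46321*.

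Developmental regulators followed. Of 43 genes that act in EGFR, Notch, Dpp, Hedgehog or Wnt signalling 18 had a peak (41.9%, 27.0 to 57.9), 31.0% ± 6.71 in the replicates' own lists (SD, n = 3). Examples were the EGFR ligand *spi* (529), the Notch inhibitor *numb* (472) and the Wnt antagonist *nkd* (405), each in all 3 replicates. Of 35 Hox and segmentation genes 14 had one (95% interval 23.9% to 57.9%), 10, 10 and 5 in the replicates. *Dll*, the homeobox gene of limb development, had 1288, with 584, 444 and 233 in the own lists of replicates 1, 2 and 3, which share no scale. *cad* (324) and *oc* (312), both homeobox genes of body patterning, were next. Of the 14 genes only 5 had a peak in all 3 replicates, and their median signal, 124, was below the 158 of all upstream promoter peaks.

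Genes of the cytosolic ribosome had peaks more often than those of mitochondria. Of 93 cytoplasmic ribosomal protein genes 23 had an upstream promoter peak (24.7%, 16.4 to 34.8), and 22, 26 and 23 had one in the replicates' own lists, 25.4% ± 2.24 (SD, n = 3). Counting only the 60 of them with eligible upstream sequence the share was 38.3%. Of the 23, 19 had a peak in all 3 replicates, and their median signal was 244. *RpL24* had a signal of 507 with 175, 161 and 186 in replicates 1, 2 and 3, *RpL23A* had 479 and *RpS28b* had 451, with summits 31, 87 and 23 bp upstream of the start. By contrast 1 of 74 mitochondrial ribosomal protein genes had a peak, *mRpL41*, and 1 of 91 genes of oxidative phosphorylation, *SdhD* (80.4, in no replicate's list). Only 20 of those 74 and 56 of those 91 genes had eligible upstream sequence, and the shares of these with a peak were 5% and 1.79%.

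Stress, translation and cell structure genes had shares near or above that of all genes. Heat shock protein genes had 6 of 26 (23.1%, 8.97 to 43.6), with *Hsp27*, *Hsp83*, the fly Hsp90 (747), and *Hsp26* (690) the strongest and a median of 500. Translation factors had 7 of 54 (13.0%, 5.37 to 24.9), with *eIF6*, *eEF1gamma* (609) and *eEF1alpha1* (302). Cytoskeleton genes had 6 of 25 (24.0%, 9.36 to 45.1), with the cytolinker *shot* (484) and *Moe*, which ties actin to the membrane (302). Cell cycle genes had 5 of 47, led by the E2F partner *Dp* (736). Insulator protein genes had 2 of 14, *BEAF-32* (316) and *Trl* (150, at a start shared with *CG42507*). Of 29 chromatin genes 3 had one, *ph-p*, *ph-d* and the remodelling enzyme gene *kis* (130). The intervals of all 6 lists contained the 10.9% of all genes.

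In the remaining lists the share of genes with a peak was below the 10.9% of all genes, by little in some of them. Odorant, gustatory and ionotropic receptor genes had 0 of 179, where the upper limit of the exact interval is 2.04%, and 0 of 27 digestive serine protease genes had one (up to 12.8%). Cuticle protein genes had 4 of 122 (3.28%, 0.9004 to 8.18), none of them in all 3 replicates, with *Cpr97Eb* the strongest (137). Cytochrome P450 genes had 4 of 85 (4.71%), with *Cyp6a16* at 356. Proteasome genes had 2 of 48 (4.17%), aminoacyl-tRNA synthetase genes 3 of 33 (9.09%) and autophagy genes 1 of 20 (5%, *Atg8a*, 185). The list of small GTPases of membrane traffic had 3 of 42 (7.14%, *Rab5*, 745), and that of secretory coat and SNARE genes 6 of 66 (9.09%, *Syx4*, 560). Drawn by symbol, the first also counted *Rab3-GAP*, a GTPase-activating protein, and the second *Vps15*, a kinase. Their shares are therefore not strictly of the classes named. Of 115 histone genes 28 had eligible sequence and 1, *His3.3B*, had a peak (165). Counting only genes with eligible sequence, of which 14.1% had a peak, the exact 95% intervals of the receptor (0 to 2.22%), cuticle (0.923% to 8.38%), cytochrome P450 (1.34% to 12.02%) and oxidative phosphorylation lists (0.0452% to 9.55%) lay below that share. Those of the protease, histone, proteasome, synthetase, autophagy, GTPase, secretory and mitochondrial ribosomal protein lists contained it. The synthetase share, 3 of 14 (21.4%), and the secretory share, 6 of 32 (18.75%), were above it. Most histone genes are near-identical repeated copies, at which placement of reads is uncertain.

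**Figure D4:**
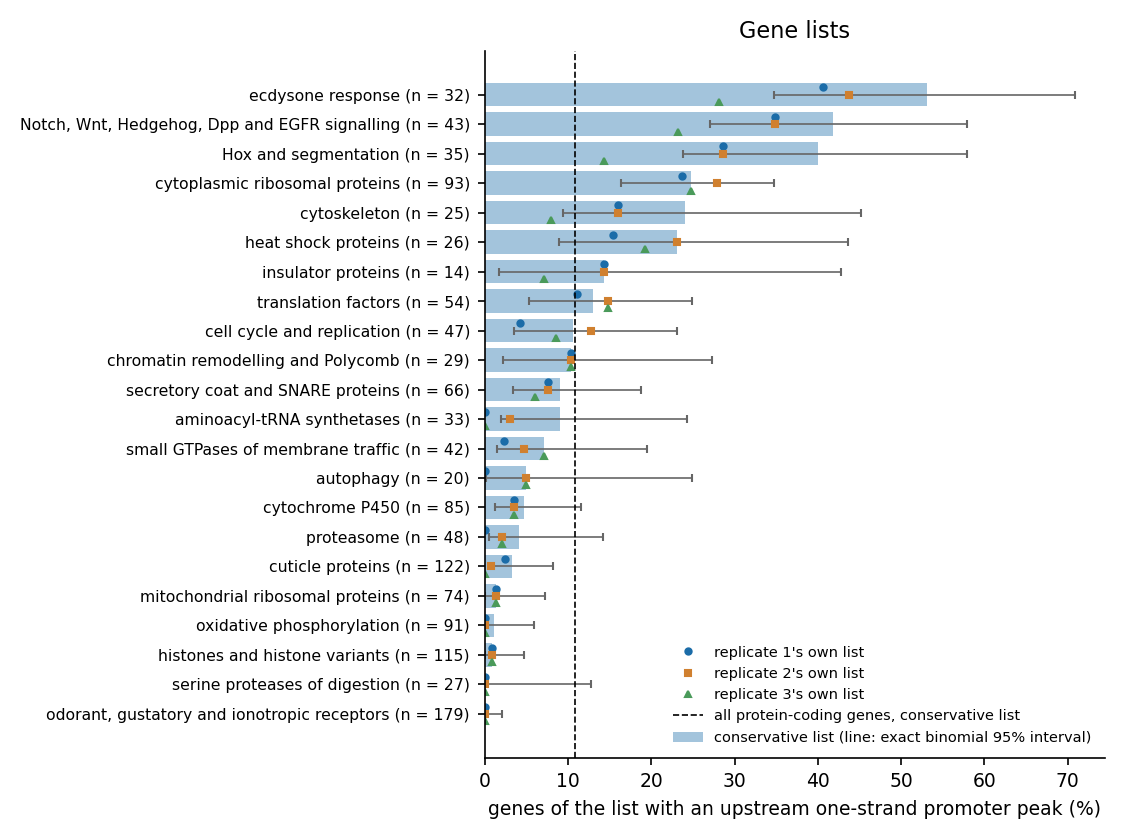
Percent of the genes of each list with an upstream promoter peak (horizontal axis) in the conservative list (bars, with exact binomial 95% intervals as lines) and in each replicate's own list (points); the dashed line marks the 10.9% of all protein-coding genes. The ecdysone-response genes stand highest at 53.1%, the cytoplasmic ribosomal protein genes at 24.7% have the 3 replicates close together, and the receptor genes stand at 0.

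Of 24 sequence words, searched on both strands, 5 were more frequent at the summits of upstream promoter peaks than in windows 300 bp farther upstream (20.8% of the words), and 2 were less frequent (8.33%). Windows held 101 bp, and each peak was compared with its own flank (exact sign test over peaks, two-sided, Benjamini-Hochberg over the 24 words). The GAGA word GAGAG was in 24.6% of the summit windows and 15.3% of the flanks (exact test, adjusted p = 1.27e-10). All one-strand promoters, read at the same distances from the start, held it in 15.0%. CAGCTG, an E-box that bHLH proteins bind, was in 7.19% against 4.51% (exact test, adjusted p = 0.0066) and in 4.84% of all promoters. The core of Ohler motif 7, CAGCNCT, was in 5.96% against 3.62% (exact test, adjusted p = 0.0066) and in 4.35% of all promoters. Runs of 8 A, or 8 T, were in 9.47% against 6.57% (exact test, adjusted p = 0.00773) and in 5.90% of all promoters.

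The DRE word ATCGATA was in 3.12% of the summit windows and 1.28% of the flanks (exact sign test, adjusted p = 0.0017), but all one-strand promoters at the same distances held it in 3.42%, no less than the peaks did. CCAAT was in 15.3% against 19.4% (exact test, adjusted p = 0.0066), and CTTTGAT, the TCF word bound by pan, in 1.00% against 2.12% (adjusted p = 0.0358). The TATA box word TATAAA was in 14.6% against 15.6% and did not pass (exact test, adjusted p = 0.644).

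Several of these calls depended on the flank or the window. Against the flank 300 bp downstream of the summit, toward the gene, the TATA box word did pass, with 14.6% against 7.69% (exact sign test, adjusted p = 1.09e-09). All one-strand promoters, read at the same distances as the summits, held the TATA box word in 16.7%, no less than the peaks did. The GAGA word (exact test, adjusted p = 6.99e-07) and the DRE word (exact test, adjusted p = 0.00052) passed against this downstream flank too, and the repeat CACACACA was lower. CAGCTG, the Ohler motif 7 core, the runs of A or T, CCAAT and the TCF word did not pass there (exact tests, adjusted p = 0.125, 0.0978, 0.109, 0.0754 and 0.186). With windows of 100 bp to each side the TATA box word was lower at the summit, in 24.96% against 28.3% (exact test, adjusted p = 0.0486), and the TCF word did not pass (adjusted p = 0.0827). Against a flank 400 bp upstream neither the DRE word (3.12% against 2.06%, exact test, adjusted p = 0.141) nor the TCF word (1.00% against 1.17%, adjusted p = 0.930) passed. With windows of 25 bp to each side the Ohler motif 7 core did not pass (exact test, adjusted p = 0.458). The GAGA word passed in each of these 4 settings.

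The 16 other words that did not pass were the initiator core TCAGT, the E-box CACGTG, the Ohler motif 1 core GGTCACAC, the GATA word AGATAAG, the nuclear receptor word AGGTCA, the Zelda word CAGGTAG, the AP-1 word TGACTCA, the CRE TGACGTCA, the PAR bZIP word TTATGTAA and the homeodomain word TAATTA, the CTCF core AGGNGGC, the Su(H) word TGGGAA, the Mad word GCCGNCGC, the heat shock word GAANNTTC, the repeat CACACACA and the brk word GGCGCC. Words can overlap, and a window could count for several. Of 10 words of 8 bases that led on 3L and 3R, 0 passed when retested on 2L, X and 4 (0%; exact sign test, Benjamini-Hochberg over 10), and 1, AGAGAGCG, had an unadjusted p under 0.05 (27 peaks with it at the summit only against 10 in the flank only, adjusted p = 0.0763).

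Among the 837 peaks that every replicate held, 0 words passed by the same exact sign test, and 2 were higher at an unadjusted p under 0.05. Runs of A or T were in 11.0% against 6.69% (exact test, adjusted p = 0.0710), the DRE word in 3.35% against 1.31% (adjusted p = 0.114) and the Ohler motif 7 core in 5.26% against 3.23% (adjusted p = 0.340). These differences were about as large as over all 1795 peaks, or larger for the runs. The GAGA word was in 19.2% of their summit windows against 16.4% of the flanks (exact test, adjusted p = 0.447), and CAGCTG in 5.26% against 5.02%, both smaller differences than over all peaks. In the replicates' own lists the GAGA word was in 24.0% against 16.2% in replicate 1 (exact sign test, adjusted p = 1.59e-05), in 24.8% against 16.5% in replicate 2 (adjusted p = 1.11e-06) and in 17.7% against 15.9% in replicate 3 (adjusted p = 0.486). The list of replicate 3 was also the smallest.

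Strong and weak upstream promoter peaks differed in sequence, in a split into 4 groups of 448 or 449 peaks by signal that was made after the data were seen. From the strongest to the weakest group, mean A/T content of the summit window was 66.1%, 58.7%, 55.3% and 54.4%. All one-strand promoters at the same distances held between 59.6% and 60.7% A/T, so the strongest group lay above them and the other groups below. The GAGA word went the other way, with 14.3%, 24.7%, 30.8% and 28.7%, against 14.8% to 15.2% of all promoters. These promoter shares were matched for distance and not for base composition. Whether the trends of single words go beyond the trend in A/T content was not tested. The TATA box word was in 21.8% of the strongest group (18.1 to 25.9) and 10.2% of the weakest (7.599 to 13.4), and CAGCTG in 2.45% (1.23 to 4.34) and 10.02% (7.40 to 13.2). Of the strongest group 96.2% were found in all 3 replicates, and of the weakest 7.13%.

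Each replicate gave the same contrast. In 4 such groups of its own upstream promoter peaks, A/T content was 66.4%, 66.3% and 66.7% in the strongest and 55.6%, 54.8% and 55.6% in the weakest group of replicates 1, 2 and 3. The difference was 11.1 ± 0.340 percentage points (SD, n = 3), positive in 3 of 3 libraries (exact sign-flip permutation test, two-sided, p = 0.25, the smallest possible). The GAGA word was in 12.1%, 12.5% and 9.32% of the strongest and 31.3%, 28.5% and 24.4% of the weakest group, a difference of −16.8 ± 2.15 percentage points (exact p = 0.25), negative in 3 of 3. The groups of values did not overlap for either measure.

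Over all 1795 peaks these opposite trends left a small mean change. A/T content was 58.6% at the summit (SD over peaks 11.8) and 61.1% at the flank 300 bp farther upstream, a change of −2.50 percentage points. Its sign turned, to 1.52, over the 837 peaks of all 3 replicates, and to 5.89 in the strongest group, while it was −6.34 in the weakest.

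In the strongest group of the conservative list the A/T-rich stretch was narrow, and the GAGA word was more frequent to either side of the summit than at it. In windows of 51 bp, A/T content was 66.6% at the summit and 66.4% at 50 bp upstream of it, against 59.6% at 100 bp upstream and 53.2% at 100 bp downstream. The GAGA word was in 19.6% of the windows 150 bp upstream of the summit, in 7.35% at the summit and in 22.5% at 100 bp downstream, so that most windows to either side lacked it. The weakest group had no such dip. There the GAGA word was most frequent close to the summit, in 18.0% of windows at 50 bp upstream and 15.8% at the summit, where A/T content was 54.0%.

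**Figure D5:**
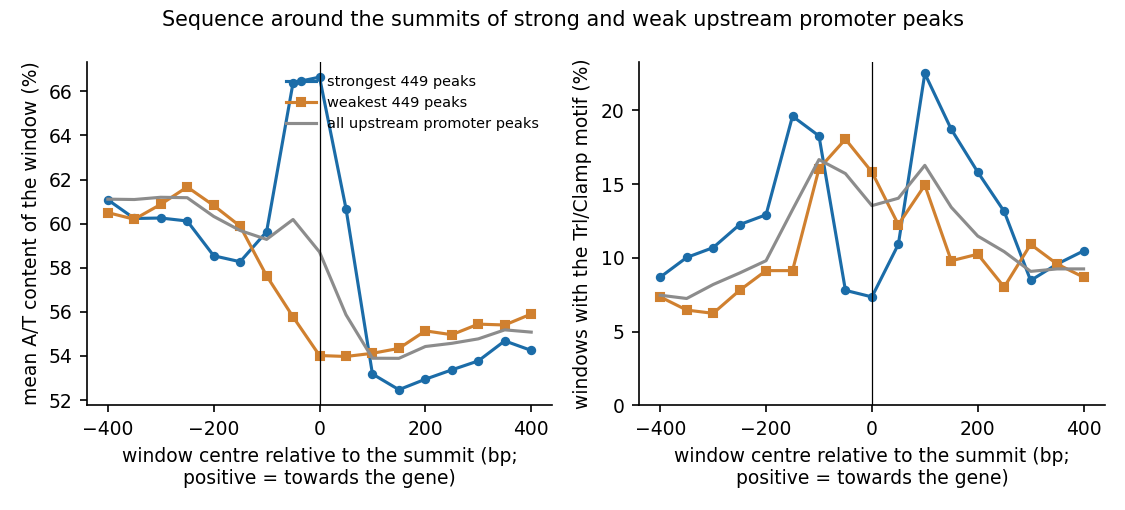
Mean A/T content (left, percent of bases) and percent of windows with the GAGA word bound by Trl and Clamp (right), in windows of 51 bp centred 400 bp upstream to 400 bp downstream of the summit (horizontal axis, bp), for the strongest 449, the weakest 449 and all upstream promoter peaks. The strongest group peaks at 66.6% A/T at the summit with the GAGA word at 7.35%, where the weakest group has 54.0% and 15.8%.

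Downstream and both-strand promoter peaks differed from upstream ones in the same measures. Mean A/T content at the summit was 53.8% (SD over peaks 9.35) for downstream peaks and 63.9% (10.9) for both-strand peaks, against 58.6% for upstream peaks. Windows of 51 bp lying 100 to 400 bp from the upstream summits toward the gene also held only 53.9% to 55.2%. Whether the differences between the classes go beyond those of the sequence at such positions was not tested. The GAGA word was in 19.6% of downstream peaks (17.2 to 22.2), in 7.96% of both-strand peaks (6.09 to 10.2) and in 24.6% of upstream peaks (22.6 to 26.7). The DRE word was in 0.792% of downstream, 6.42% of both-strand and 3.12% of upstream peaks. Within the upstream peaks, those outside any gene held the DRE word in 4.41% (3.14 to 6.01) and those in introns in 1.22% (0.561 to 2.31), and the GAGA word in 21.5% and 28.0%. All one-strand promoters at the same distances held the DRE word in 3.54% and 3.07%, and the GAGA word in 15.3% and 14.6%. These promoter shares were matched for distance only, and not for lying in an intron or outside any gene. The shares of the peaks are over peaks of 1 list and were given no test.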

How the data were processed

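ChIP-seq of CG6163-eGFP was deposited as peak lists on dm6 for 3 biological replicates of 1 group and for the series. Chromatin was sonicated to 200 to 800 bp, per the labels. The sources used here do not give the aligner or peak caller. The authors deposited a signal per peak, a −log10 q-value and, in a ranked list, a score that is −log10 of the irreproducible discovery rate (IDR), by which they filtered the lists. Signal was ranked, averaged and split within a list only, values of different lists set side by side share no scale, and the other 2 values served as filters. The notes deposited with the lists name all 3 libraries as sources of the conservative list, not which were compared. In the ranked series lists 32 columns of the compared sets were not used. A width of 370 bp was listed for most weak peaks, and a wider peak overlaps others more easily.

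Starts came from the Ensembl 115 annotation and sequence from RefSeq, both with dm6 coordinates. Densities are summits per Mb of bases that meet the rule. Tests were exact sign tests and exact sign-flip permutation tests over libraries. With p-values over 3 libraries the smallest possible is 0.25, and whether the replicates differ in more than handling is known only from the label biological replicate. Shares of all one-strand promoters were read at 25 bp steps and weighted to the distances of the peaks.

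Members, gene lists, words and tests were chosen with earlier results of these data known. Gene lists were built from symbols and symbol patterns, and Eip71CD, Eip55E, Hr46, ImpL3, Dl, dad, yan, h, otd and Z4 matched no symbol. Genes named are those of the 20 strongest peaks in all 3 replicates, the 5 strongest in none, and up to 3 per list. Others (genes with 5 or more peaks and *bowl*) were chosen after their values were seen. The split into 4 groups by signal and the tests in each replicate's own list were added after the data were seen. Alternatives changed the list, IDR and q limits, window, start set, overlap rule, sequence windows and replicates. The functions, written in Python 3.11.15 with SciPy 1.17.1, NumPy 2.4.6, matplotlib 3.10.9 and pandas 2.3.3, were tested on simulated data.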

Additional observations from a re-analysis of the deposited data

How the results depend on the processing

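The number of upstream promoter peaks stayed within 1.5 times of 1795 under every list, window and filter tried. Keeping only peaks held by both remaining replicates left 891 to 1086. The share in every replicate was 56.7% in the series list of 8933 peaks, 61.5% at a q-value of at most 0.05, 66.9% at an IDR of at most 0.001, 33.4% when the overlap had to cover 50% of both peaks, and 49.6% to 60.5% with 1 replicate left out. The upstream to downstream density ratio was 2.63 at the q-value limit and 2.61 at the IDR limit. Its mean over libraries was 2.56 to 2.95 with 1 left out. The median distance was 153.5, 151, 151, 153.5, 145 and 154.5 bp in the lists of 9110 and 8933 peaks, with starts of any gene type, at the q-value limit, with 1 peak per merged region and at the IDR limit. It was 106.5 and 197 bp for windows of 250 and 1000 bp, and 155 to 161 bp with 1 replicate left out. The ratio of median signals, upstream over downstream, was 1.22 in the list of 12445 peaks, 1.22 for the 1000 bp window, 1.25 with merged regions and 1.31 to 1.36 with 1 replicate left out.

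The share of genes with a peak was 12.004%, 9.49% and 9.22% in the lists of 12445, 9110 and 8933 peaks, 9.05% with starts of any gene type, 8.43% and 7.74% at the q-value and IDR limits, and 5.83% to 6.93% with 1 replicate left out. The number of words higher at the summit was 3 against a flank downstream, with the TATA box word among them, 8 with windows of 100 bp to each side, 0 for peaks in every replicate, 3 and 1 in the own lists of replicates 1 and 3, 0 in the strongest of 4 signal groups, 1 in the weakest, and 0 to 2 with 1 replicate left out. In the strongest group the difference in share between summit and flank reversed for the GAGA word (−4.90), CAGCTG (−1.56) and the Ohler motif 7 core (−0.668 percentage points). Retested 8-base words passing numbered 1 against the downstream flank, 5 with a flank 400 bp upstream and 6 with windows of 100 bp to each side. The A/T change from flank to summit was 3.83 points against the downstream flank, 1.52 for peaks in every replicate, 5.89 and −6.34 in the strongest and weakest groups, and −0.37 to 1.15 with 1 replicate left out. The cause of these shifts was not tested, and fewer peaks were tested wherever peaks were left out. No paired analysis was possible because there was 1 group. Depth is unknown, so a gene without a peak is one at which none was listed.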
